A study of Mus musculus with 6 samples.

Results

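The neuron navigator genes Nav1, Nav2 and Nav3 gave 40 of the 18136 circular RNAs (circRNAs) measured in brain RNA of A53T and WT mice. They are all circRNAs whose deposited gene name is one of the 3 symbols; the genes were chosen by the number of their circRNAs and junction reads in these same libraries, so those numbers are a description. Nav1 had 2 of them, Nav2 had 10 and Nav3 had 28. A circRNA is a closed RNA ring. It was counted by reads across the back-splice, the point at which splicing runs backwards and an exon's end meets the beginning of the same or an earlier exon. The A53T group (transgenic mice that serve as a Parkinson disease model) had 3 libraries and the WT group (wild-type mice) had 3. A53T is a variant of alpha-synuclein that causes inherited Parkinson disease. The series text places the tissue in the substantia nigra, whereas the sample labels say brain. Sources used here give neither the age of the mice, the promoter of the transgene, nor whether the 3 samples of a group are separate animals, so the spread behind each p-value may be technical only.

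Libraries held 25217 to 36390 junction reads, and 1 read was worth 28.1 to 38.7 CPM for single circRNAs and 27.5 to 39.7 CPM for gene sums. CPM is the unit used for levels (reads put on 1 scale for all libraries, with TMM factors that correct for composition). The navigator circRNAs together took 281 of 190023 reads (0.148%). As a check of the tissue, all 4 neuronal marker genes had a circRNA, with 15 to 40 summed reads in the A53T libraries and 24 to 55 in the WT libraries. None of the 8 dopaminergic neuron markers and none of the 4 microglia markers had a listed circRNA. Of 4 astrocyte markers 2 had one, with 3, 6 and 7 reads in A53T and 5, 0 and 0 in WT, and of 4 oligodendrocyte markers 1 had one, with 2 reads in A53T and 0 in WT. Their part in the results below was not tested. Junction reads do not measure linear mRNA, so these values do not give cell type shares, and fewer cells of a type and less circRNA per cell cannot be told apart in bulk RNA.

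Navigators are large proteins of the neuronal cytoskeleton, related to the worm (Caenorhabditis elegans) protein UNC-53, which guides migrating cells and axons. They bind microtubules and their growing ends and take part in neurite outgrowth. All navigators end in an ATPase domain of the AAA type, and Nav2 and Nav3 also begin with a calponin homology domain, a fold often found in actin-binding proteins. The genes should not be mistaken for the voltage-gated sodium channels, whose proteins carry a similar abbreviation but whose gene symbols begin with Scn.

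Each of the 32 exonic circles could be placed on exactly 1 run of exons of its transcript, found by its genomic span together with its predicted length. Many of these runs recur in other annotated transcripts of the gene, where the same exons carry other numbers. Within Nav2 and within Nav3, every matched circRNA lay at 1 constant distance from the older annotation, so exon numbers could be read from it. Nav1 had only 1 matched circRNA, so a constant distance could not be checked there. Only the 2 joined ends were observed; lengths and the exons between them are predictions. Nav3 numbering refers to Nav3-201, the protein-coding transcript with 39 exons, unless Nav3-202 is named.

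The Nav3 circles are shown first, because many share an end. Each sequence below is the reference transcript across the back-splice, 5′ to 3′. Lower case gives the last 20 bases of the last exon, and capitals give the first 20 bases of the first exon. The first 5 share the start of exon 13 and differ in the exon that closes the circle.
Nav3 exons 13 to 15: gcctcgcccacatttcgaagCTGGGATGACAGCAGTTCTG
Nav3 exons 13 to 16: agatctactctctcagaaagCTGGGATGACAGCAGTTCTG
Nav3 exons 13 to 20: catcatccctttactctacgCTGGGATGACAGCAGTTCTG
Nav3 exons 13 to 23: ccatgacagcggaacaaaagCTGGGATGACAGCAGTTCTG
Nav3 exons 13 to 24: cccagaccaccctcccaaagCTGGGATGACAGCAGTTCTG
The next 4 have the mirror pattern: all close at the end of exon 12 and differ in the exon where they begin.
Nav3 exons 10 to 12: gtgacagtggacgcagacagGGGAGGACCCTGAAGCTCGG
Nav3 exons 9 to 12: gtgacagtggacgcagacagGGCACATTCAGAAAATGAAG
Nav3 exons 7 to 12: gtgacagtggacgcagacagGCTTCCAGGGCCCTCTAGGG
Nav3 exons 2 to 12: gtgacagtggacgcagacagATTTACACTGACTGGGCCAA
The last pair are single-exon circles with many reads.
Nav3-202 exon 3: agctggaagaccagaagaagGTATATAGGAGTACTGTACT
Nav3 exon 16: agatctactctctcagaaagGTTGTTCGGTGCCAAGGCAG

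No circle of Nav3-201 spanned intron 12. Of the 22 exonic circRNAs of the transcript, 11 lay within exons 1 to 12 and 11 within exons 13 to 39, and 0 held both exon 12 and exon 13. In all, 12 of the 38 introns were spanned by no circle. The others were intron 1, at the start of this transcript, and introns 24, 28 to 35 and 38, with 2 or fewer circles downstream of each. Circles on the upstream side had 18, 5 and 10 reads in the A53T libraries (replicates 1, 2 and 3, the order used throughout) and 16, 14 and 9 in the WT libraries. Those on the downstream side had 29, 8 and 9 reads in A53T and 17, 15 and 14 in WT. Both sides were read in all 6 libraries, and the groups overlapped on each side. At this intron 9 of the 22 circles had an end, beginning at exon 13 or closing at exon 12, and they held 94 of the 164 reads. By reads alone, the end of exon 16 came first, with 50 reads, against 49 for the end of exon 12 and 45 for the start of exon 13.

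At 45929 nt, intron 12 is the second longest of the 38 introns of Nav3-201, whose median is 3260 nt. Intron 1, at 96113 nt, is the longest, and 3 circles began at exon 2, directly after it. Taken over both introns, 11 of 22 circles (50%) and 62.8% of reads were next to 1 of the 2 longest introns of the transcript. Among 5534 exonic circles of other genes, in transcripts with at least 20 introns, these shares were 35.3% of circles and 46.3% of reads. Nav2, counted in the same way, had 3 of 7 circles (42.9%) but 32.3% of reads next to such an intron. Its exons 4 to 6 circle was left out of that count, because it was deposited under a transcript of 6 exons. Circles of 1 gene share ends and libraries, so these differences in shares were not tested. Sharing an end as such was not particular to Nav3: 19 of its 23 exonic circles (82.6%) did so, against 91.5% of 614 exonic circles in 26 other host genes with 20 or more.

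**Figure D1:**
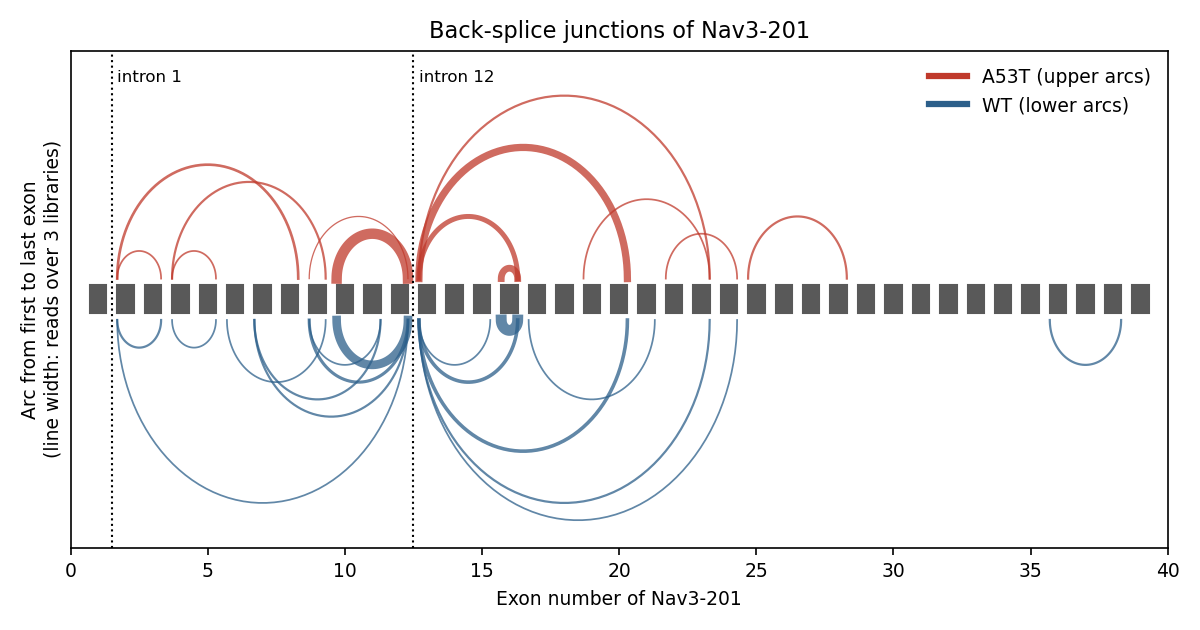
Back-splice junctions of Nav3-201, drawn as arcs from the first to the last exon of each circRNA over the exon number (x axis), with the line width giving its reads summed over 3 libraries. A53T is above the exons and WT below; no arc crosses the dotted line of intron 12, and the widest arcs are exons 10 to 12 in A53T (21 reads) and exon 16 in WT (22 reads).

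The most read navigator circle was exon 3 of Nav3-202, with 57 of the 237 Nav3 reads (24.1%). This exon lies upstream of Nav3-201, on the minus strand of chromosome 10 (110052563 to 110052971, mm39). It is 409 nt long and its transcript has 5 exons and is annotated as a retained intron, with no coding sequence. The introns on its sides, 99854 and 312838 nt, are longer than any of Nav3-201. It had 3, 12 and 6 reads in the A53T libraries and 20, 6 and 10 in the WT libraries. WT replicate 1 was highest and A53T replicate 1 lowest, and the groups overlapped. A sense overlapping circRNA shared its downstream end and reached to position 110108689; it had 7 reads in 4 libraries, and its predicted length of 56127 nt equals its genomic span.

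Nav3 exons 10 to 12 came next, with 38 reads (chromosome 10, 109652115 to 109660542, minus strand, 613 nt). The A53T libraries had 12, 2 and 7 reads, and the WT libraries had 6, 7 and 4. The highest and the lowest value both belonged to A53T. Exon 16, a coding exon of 489 nt at 109600379 to 109600867, had 35 reads. They were 8, 3 and 2 in A53T and 11, 6 and 5 in WT, so the groups overlapped through A53T replicate 1. The leading 3 circles together held 130 of the 237 Nav3 reads.

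Nav3 exons 13 to 20 (2053 nt) had 8, 2 and 4 reads in A53T and 3, 2 and 1 in WT. This was the last of the 4 navigator circles read in all 6 libraries. Exons 13 to 16 (1608 nt) had 8, 1 and 0 reads in A53T and 1, 2 and 3 in WT. In both cases A53T replicate 1 stood above the other 5 libraries. All 5 exonic circles that began at exon 13 had 19, 3 and 4 reads in A53T and 6, 6 and 7 in WT. Most of their A53T reads therefore came from 1 library. A sense overlapping circRNA with the same start, not counted among them, had 2 reads in A53T replicate 1.

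**Figure D2:**
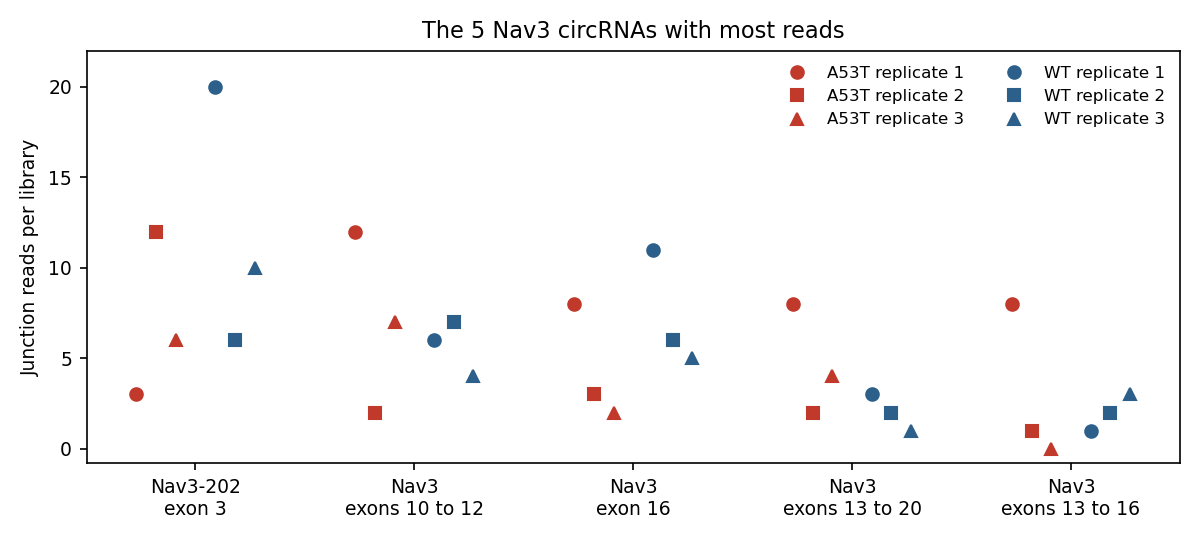
Junction reads per library (y axis) for the 5 Nav3 circRNAs with most reads (x axis); each point is 1 library, A53T to the left of WT, with the marker shape giving the replicate number. A53T replicate 1 is lowest for Nav3-202 exon 3 (3 reads) and highest for exons 10 to 12 (12 reads), and the groups overlap for all 5.

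Shorter circles near the start of Nav3-201 were also seen more than once. Exons 2 to 3 (171 nt), which begin directly after the longest intron of Nav3-201, had 2, 0 and 0 reads in A53T and 1, 2 and 0 in WT. This was the shortest navigator circle read in at least 3 libraries. Exons 9 to 12 had 1 read in A53T and 5 in WT, over 3 libraries in all. Towards the end of the gene, which encodes the ATPase domain, circles were few: exons 25 to 28 had 3 reads and exons 36 to 38 had 3. Of the 28 Nav3 circRNAs, 16 were read in 1 library only. Among these were 3 intronic circles with 2 to 3 reads each, from A53T replicate 1 or replicate 3. Of all circRNAs, 29.5% were seen in A53T alone, and the 1 intronic circle of Nav2 had 2 reads in WT replicate 3.

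Nav2 lies on the plus strand of chromosome 7. Its 10 circRNAs had 38 reads, and none was read in all 6 libraries. Exons 28 to 34 of the transcript Nav2-204 led with 7 reads (49225396 to 49244200, 1092 nt); A53T had 0, 2 and 0 and WT had 3, 0 and 2. Exons 2 to 6 of Nav2-202 had 3, 0 and 0 reads in A53T and 0, 2 and 1 in WT. Exons 13 to 14 had 0, 0 and 3 in A53T and 0, 3 and 0 in WT. For these 3 circles the groups overlapped, and none was read in more than 3 libraries. A sense overlapping circle at 49103230 to 49111765 had 3 reads, all in A53T replicate 3.

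Nav2 exons 6 to 10 (49069922 to 49114677, 1884 nt) had 3, 1 and 2 reads in A53T and 0 in each WT library. It was the 1 navigator circle read in all libraries of one group and in none of the other. With a floor of 3 reads over the WT group (31.4 CPM), its level over the A53T group was 2.03 times that floor. The A53T reads entered at face value, so this ratio leaves out their counting error and the spread between samples. The circle was singled out after its values were seen, and it fell under the filter of the test. Among all circRNAs that were tested, 5.19% stood higher in all A53T than in all WT libraries. The tested set leaves out circRNAs with as few reads as this one, so that share is not matched to it.

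Nav1 was represented by 6 reads. Its exon 1 circle (chromosome 1, 135512293 to 135513093, minus strand, 801 nt) had 2, 1 and 0 reads in A53T and 1, 0 and 0 in WT. In the transcript Nav1-201 this exon is the first and holds the start codon, so it has no annotated upstream splice site there; in another transcript, Nav1-207, it is exon 3. Its junction joins the end of the exon to its own start.
Nav1 exon 1: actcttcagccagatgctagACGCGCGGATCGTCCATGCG
The other Nav1 circle was antisense (135534900 to 135535642, plus strand), with 2 reads in A53T replicate 2 and 0 elsewhere. Whether counting used the strand is not given in the sources used here.

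Levels of the 3 genes were set against each other per kilobase of their coding transcripts, counting all circRNAs of a gene. The reads counted are therefore not all from the transcript whose length was used. For Nav3, 164 of 237 reads were from exonic circles of Nav3-201, whose length was used. The Nav3-202 exon 3 circle, with 57 reads, lies outside that transcript. Over the 6 libraries Nav3 had 128 ± 42.2 CPM per kilobase (range 81.6 to 190), Nav2 had 17.9 ± 7.50 (12.1 to 32.4) and Nav1 had 2.52 ± 3.18 (0 to 7.35; SD, n = 6). The order Nav3, Nav2, Nav1 held without overlap between neighbours. The genes were proposed with their circle numbers and reads known, so these levels are a description. By number of circRNAs Nav3 ranked 9 of 5414 host genes, and by reads it ranked 115. Nav2 ranked 286 and 1020, and Nav1 ranked 2078 and 3004.

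Nav2 and Nav3 are paralogues, and their exons could be paired by aligning the coding sequences of Nav2-202 and Nav3-201. Over 6889 aligned bases 64.3% were identical, and 37 exons paired. Only circles of these 2 transcripts were compared, so the leading Nav2 circle, exons 28 to 34 of Nav2-204, was left out. Of the 7 circRNAs of Nav2-202, 3 had a Nav3 circle whose first and last exons were the paired ones. These were exons 2 to 3 in both genes, Nav2 exons 6 to 10 with Nav3 exons 7 to 11, and Nav2 exons 6 to 11 with Nav3 exons 7 to 12. The junctions below show how alike the paired ends are.
Nav2 exons 2 to 3: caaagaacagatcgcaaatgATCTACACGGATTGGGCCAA
Nav3 exons 2 to 3: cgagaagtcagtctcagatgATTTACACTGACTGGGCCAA
Nav2 exons 6 to 10: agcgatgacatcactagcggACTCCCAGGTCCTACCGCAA
Nav3 exons 7 to 11: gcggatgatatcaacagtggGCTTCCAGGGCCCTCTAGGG
Nav2 exons 6 to 11: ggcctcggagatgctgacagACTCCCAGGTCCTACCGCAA
Nav3 exons 7 to 12: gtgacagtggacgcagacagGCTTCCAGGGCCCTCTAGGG

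The exons 2 to 3 circle was predicted to be 171 nt in both genes, with 2 reads in Nav2 and 5 in Nav3. The other paired circles differed in length: 1884 and 1779 nt for the first, 2007 and 1899 nt for the second. Their reads were 6 in Nav2 against 3 in Nav3, and 2 against 3. In each pair at least 1 circle was read in 1 library only. These were Nav2 exons 2 to 3, Nav3 exons 7 to 11, Nav2 exons 6 to 11 and Nav3 exons 7 to 12. Exons 2 and 3 were 75.4% and 69.8% identical, and exon 6 of Nav2 was 62.9% identical to exon 7 of Nav3. The most read Nav3-201 circles, exons 10 to 12 and exon 16, had no counterpart among the Nav2-202 circles, although both exon 10 and exon 16 have a paired Nav2 exon. These circles held 38 and 35 of the 237 Nav3 reads, and all Nav2 circles together had 38 reads; the difference was not tested.

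**Figure D3:**
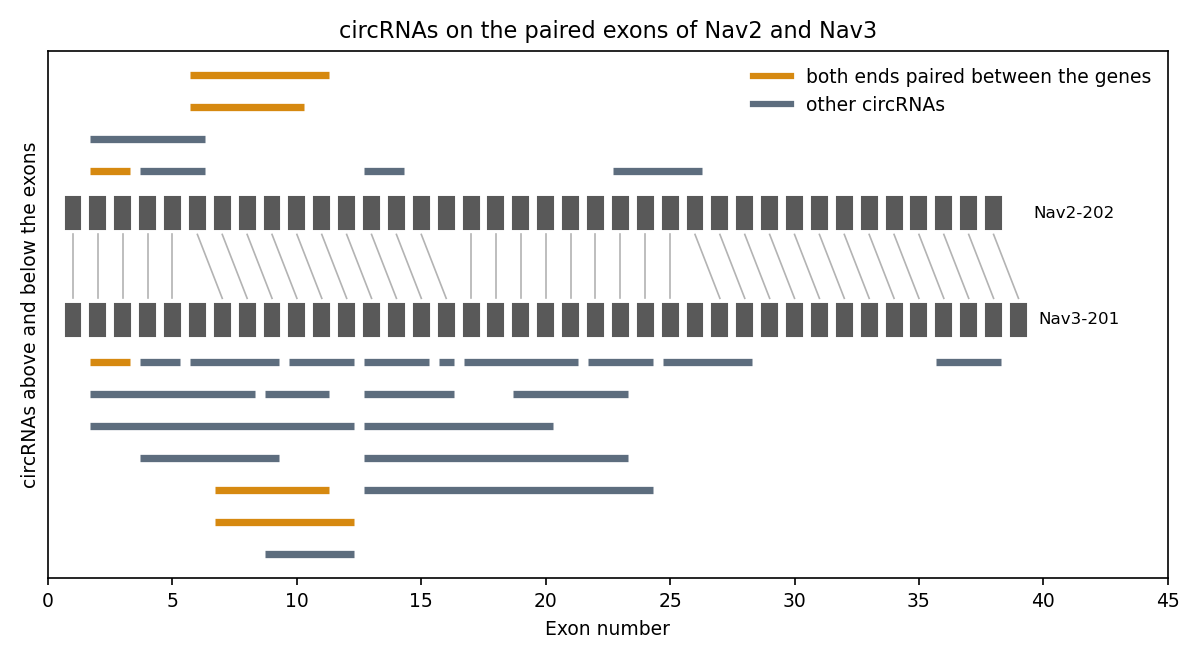
Horizontal bars show the exons spanned by each circRNA of Nav2-202 (above) and Nav3-201 (below) by exon number (x axis), with grey lines joining the 37 paired exons. Orange marks circles, 3 in each gene, whose first and last exons pair with those of a circle in the other gene. Other circles can also begin and end at paired exons. The circles of Nav2-204 and Nav3-202 are not drawn.

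Most circles were made of coding sequence alone, and the series concerns a circRNA that encodes a peptide. Of the 32 exonic circles, 30 were wholly coding. In 12 of the 30 (40%) the predicted length was a multiple of 3, against 38.6% of all 13133 exonic circles in the table. In those 12 the reading frame of the mRNA met no stop codon when carried round the circle 4 times; this follows from the length unless the codon at the junction is a stop. They include Nav3 exon 16, Nav3 exons 13 to 16, and all 3 pairs of Nav2 and Nav3 circles above. In the other 18 the frame shifted at the junction and met a stop codon within 3 to 126 bases. The Nav1 exon 1 circle was the 1 circle that holds an annotated start codon, and its 801 nt gave a frame without a stop. No translation was measured here.

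The design asks whether circRNAs differ between A53T and WT brain. Summed over its circRNAs, Nav3 had 55, 26 and 31 reads in the A53T libraries and 54, 38 and 33 in the WT libraries. The level was 1219 ± 591 CPM in A53T and 1326 ± 291 CPM in WT (SD, n = 3 each). In CPM the highest and the 2 lowest libraries were all A53T, so the groups overlapped. Nav2 had 6, 5 and 12 reads in A53T and 5, 5 and 5 in WT, or 243 ± 110 and 162 ± 32.2 CPM. A53T replicate 3 stood above the rest and the others lay close together. Nav1 had 2, 3 and 0 reads in A53T and 1, 0 and 0 in WT, too few for the test.

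**Figure D4:**
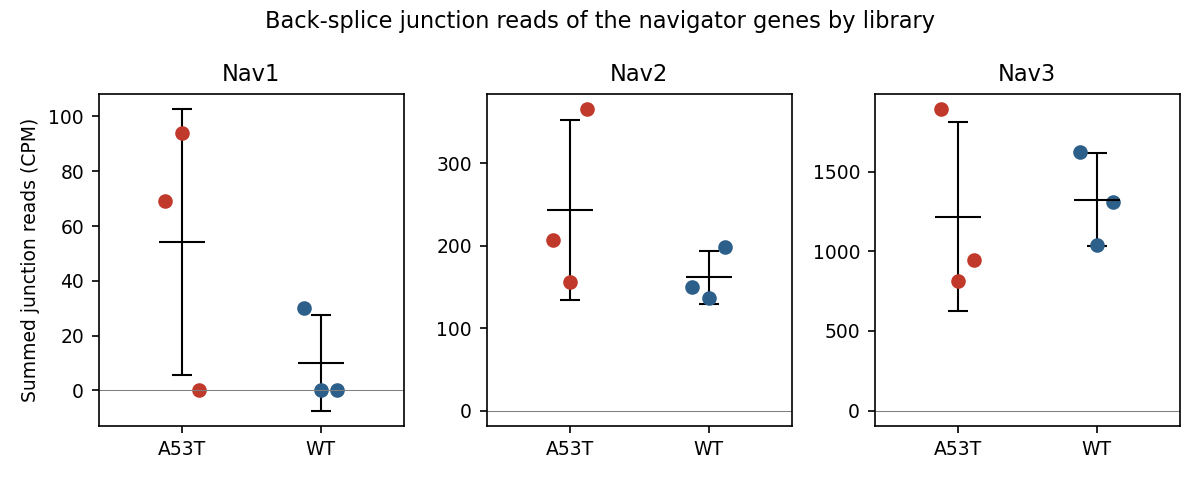
Summed junction reads of Nav1, Nav2 and Nav3 in CPM (y axis, a separate linear scale for each gene) in A53T and WT libraries; points are single libraries, and lines with bars give mean and SD (n = 3 each). The groups overlap for all 3 genes, with Nav3 at 813 to 1897 CPM in A53T and 1043 to 1624 CPM in WT.

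Neither tested gene differed beyond the spread between samples. The log2 fold change of Nav3 was -0.13 (standard error 0.30, 95% interval -0.73 to 0.47) and that of Nav2 was 0.60 (standard error 0.76, interval -0.92 to 2.11), with adjusted p = 0.993 and 0.992 in edgeR's quasi-likelihood test over 1377 host genes. The sign for Nav3 turned to 0.06 without A53T replicate 2 and to 0.04 without WT replicate 1, and it was -0.60 without A53T replicate 1. Nav2 was at 0.14 without A53T replicate 3. Among all host genes tested, 0% were called and 4.79% had an unadjusted p under 0.05. The groups did not overlap for 10.5% of them (5.66% higher and 4.79% lower in A53T), against 0 of the 2 navigator genes.

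Of the 40 navigator circRNAs, 3 had at least 5 reads in at least 3 libraries and were tested, all from Nav3. Exons 10 to 12 had 227 ± 170 CPM in A53T and 176 ± 21 CPM in WT, with SD over n = 3 each. Its log2 fold change was 0.34 (standard error 0.74). Exon 16 had 141 ± 111 CPM in A53T and 228 ± 82.7 CPM in WT, a log2 fold change of -0.70 (standard error 0.76). Nav3-202 exon 3 had 220 ± 140 CPM in A53T and 381 ± 209 CPM in WT, a log2 fold change of -0.77 (standard error 0.59). None of the 3 passed the edgeR quasi-likelihood test over 1214 circRNAs (adjusted p between 0.993 and 0.999), and the groups overlapped for all 3. Of all circRNAs tested, 11.3% had groups that did not overlap, 5.19% higher and 6.1% lower in A53T. The 95% intervals reached from -1.97 to 0.44 for Nav3-202 exon 3 and from -2.24 to 0.85 for exon 16.

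These values moved when 1 library was left out, and the sign turned only for exons 10 to 12. Exons 10 to 12 were at -0.31 without A53T replicate 1 and at 0.80 without A53T replicate 2. Exon 16 ran from -1.50 without A53T replicate 1 to -0.34 without A53T replicate 3, and was at -0.35 without WT replicate 1 and -0.47 without A53T replicate 2. Nav3-202 exon 3 ran from -1.36 without A53T replicate 2 to -0.28 without WT replicate 1, and was at -0.42 without A53T replicate 1. Over all circRNAs, 0% were called by edgeR (57, or 4.7%, at an unadjusted p under 0.05). DESeq2 called 0 (51 unadjusted), the edgeR exact test 0 (58) and limma-voom 1 (56), which was not a navigator circle. For host genes the counts were 0 in edgeR (66), 0 in DESeq2 (48), 0 in the exact test (60) and 1 in limma-voom (65).

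The share of the leading Nav3 circle was compared between the groups. Nav3-202 exon 3 took 5.45%, 46.2% and 19.4% of the Nav3 reads in the A53T libraries and 37.0%, 15.8% and 30.3% in the WT libraries. The mean was 23.7 ± 20.7% in A53T and 27.7 ± 10.9% in WT (SD, n = 3 each; two-sided exact permutation test, p = 0.8; with 3 samples against 3 it cannot go below 0.1). The lowest and the highest share were both A53T: 3 of 55 reads in replicate 1 (95% Wilson interval 1.87 to 14.9%) and 12 of 26 in replicate 2 (28.8 to 64.5%). These intervals do not overlap and cover counting error only, because amplified copies of 1 molecule cannot be recognised here. For Nav2 the leading circle, exons 28 to 34, took 13.3 ± 23.1% in A53T and 33.3 ± 30.6% in WT (exact permutation p = 0.7, and 0.8 for both genes after Benjamini-Hochberg adjustment over 2 tests).

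The number of different circles per library was compared in the same way. With at least 1 read, Nav3 had 12, 9 and 9 circRNAs in the A53T libraries and 11, 13 and 9 in the WT libraries. Nav2 had 2, 3 and 5 in A53T and 2, 2 and 3 in WT. Nav1 had 1, 2 and 0 in A53T and 1, 0 and 0 in WT. The means were 10 ± 1.73 in A53T and 11 ± 2 in WT for Nav3, 3.33 ± 1.53 in A53T and 2.33 ± 0.577 in WT for Nav2, and 1 ± 1 in A53T and 0.333 ± 0.577 in WT for Nav1 (SD). Exact permutation tests gave p = 0.7 for each gene (two-sided, 0.7 after adjustment over 3 tests). Over the 6 libraries 15 navigator circRNAs with 40 reads were seen in A53T alone, 11 with 25 reads in WT alone and 14 in both. As shares these were 37.5%, 27.5% and 35%, against 29.5%, 29.1% and 41.4% of all circRNAs. A single library held all reads of 23 of the 40 (57.5%), against 50.7% of all circRNAs.

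Genes that act at microtubules, as navigators do, were described from a list of 38. Of these, 31 had a circRNA and 19 were tested as host genes. None passed in either direction (edgeR quasi-likelihood, smallest adjusted p = 0.991; 1 at an unadjusted p under 0.05). Log2 fold changes lay above 0 for 11 and below 0 for 8, with a median of 0.05 and a range of -1.57 to 1.69; the median over all 1377 host genes was 0.01. Apc, a tumour suppressor that binds microtubule ends, had most reads and 1514 ± 218 CPM in A53T and 1444 ± 346 CPM in WT. Camsap1, which binds the minus ends of microtubules, had 433 ± 248 CPM in A53T and 780 ± 159 CPM in WT, a log2 fold change of -0.83 and the smallest p of the list (adjusted p = 0.991 in the same test). Clip4, of a family of microtubule-binding linkers, had 562 ± 339 CPM in A53T and 312 ± 139 CPM in WT. The cytoskeletal linker Dst had 609 ± 163 CPM in A53T and 405 ± 56 CPM in WT. Ckap5, a microtubule polymerase, had 436 ± 135 CPM in A53T and 467 ± 78.9 CPM in WT, and Map7d2 had 535 ± 59.9 CPM in A53T and 539 ± 188 CPM in WT (SD, n = 3 each).

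Host genes whose level over the 6 libraries was most like that of a navigator gene were sought among 338 with at least 20 reads per library on average. For Nav3 these were Arhgap26, with Pearson's r = 0.95 on log2 CPM, Mpp6 (0.85) and Atp9b (0.83). Arhgap26 had 105, 68 and 83 reads in A53T and 116, 107 and 79 in WT, low in A53T replicate 2 as Nav3 was. For Nav2 they were the receptor tyrosine phosphatase gene Ptprd (0.93), Ankrd12 (0.87) and Ankib1 (0.85). Ptprd had 19, 23 and 39 reads in A53T and 21, 21 and 20 in WT, with its high value in A53T replicate 3 as for Nav2. These r values are the largest of many over 6 libraries and are given as a description.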

How the data were processed

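Libraries came from a directional kit after circRNA enrichment of total RNA and were read as paired ends, per the labels' protocols. Tools listed by the submitters' processing notes are STAR, cutadapt 1.9.3 and edgeR 3.16.5, with the build mm39. The circRNA caller and its settings were not given in the sources used here. One deposited table holds counts of junction reads and, per the file headers, log2 CPM made by the authors with edgeR, which was not used. Its predicted lengths were used as deposited. Tests used the counts: edgeR 4.0.16 (quasi-likelihood, TMM, at least 5 reads in at least 3 of 6 libraries, Benjamini-Hochberg, threshold 0.05) in R 4.3.3, for circRNAs and for host gene sums. The 338 circRNAs with no gene name (0.690 to 0.828% of reads) stayed out of the sums. A 95% interval of a fold change carries the spread between samples. Scripts were tested on simulated counts. Exact permutation tests used scipy 1.17.1, and figures matplotlib 3.10.9.

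Coordinates are mm39, 1-based. Exons and sequences come from GENCODE M21, an older build, with nothing converted. Exons are numbered in the deposited transcript, except 1 Nav2 circle deposited under the non-coding Nav2-201, whose exons are exons 4 to 6 of Nav2-202. The rule for named circRNAs was all tested ones, the 5 with most reads per gene, and the longest and shortest read in at least 3 libraries; other circles named (such as Nav3 exons 25 to 28 and 36 to 38, and those that share an end or are paired) were chosen after their values were seen; the 6 genes of the microtubule list with most reads were named, and 3 host genes by likeness. Members and lists were chosen with earlier results of these data known. The pairing of Nav2 and Nav3 exons and the intron, frame and shared-end counts were added after the values were seen.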

Additional observations from a re-analysis of the deposited data

How the results depend on the processing

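With 3 libraries a group and 25217 to 36390 junction reads each, 37 of the 40 navigator circRNAs were below the filter and were not tested. The number of circRNAs past the threshold was 0 and became 1 with a filter of at least 10 reads and 1 with limma-voom; leaving out 1 library gave 0 to 1. For host genes limma-voom gave 1, and leaving out any 1 library gave 0. No call was a navigator circRNA or gene. Over the other scalings, filters and tools the log2 fold change of Nav2 stayed between 0.52 and 0.60 and that of Nav3 between -0.21 and -0.12. Leaving out 1 library gave 0.14 to 0.80 for Nav2 and -0.60 to 0.06 for Nav3. Nav3 exons 10 to 12 turned to -0.02 with limma-voom, and ran from -0.31 to 0.80 when 1 library was left out; for exon 16 (-1.50 to -0.34) and Nav3-202 exon 3 (-1.36 to -0.28) the sign held. The difference in the share of Nav3-202 exon 3 ran from -15.3 to 5.04 percentage points. Per 100 junction reads of the gene, the difference in the number of circRNAs changed sign, to -1.67 for Nav2 and 1.2 for Nav3. The cause of these turns was not tested. Nav1 gave a fitted value only without a filter (log2 fold change 2.04, standard error 2.27). With 10 reads as the filter Nav2, exon 16 and exons 10 to 12 gave no value. Same-numbered A53T and WT samples did not deviate together over 1214 circRNAs (correlations -0.0326, 0.0141 and 0.0227). With so few reads per circRNA, these correlations cannot show whether such samples were handled together. With the replicate block the log2 fold changes were 0.52 for Nav2 and -0.18 for Nav3, and 0 circRNAs and 0 host genes were called.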
